A study of Mus musculus with 16 samples.

Results

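The desmosome genes examined here were Dsp, Jup, Pkp1, Pkp2, Pkp3, Dsg1a, Dsg2, Dsg3, Dsc2 and Dsc3, read from every probe set of the array whose annotation names 1 of these symbols and no other gene. Of the 10 genes, 9 had such probe sets, 22 in all, among 18193 genes with a probe set of a single symbol. Dsg3 was not analysed here. The samples were basal cells of the corneal epithelium and of the limbus, where cornea meets conjunctiva, taken by laser capture from 8 wild-type mice at 300 cells per site. Each of the 16 captures was hybridised to its own Affymetrix Mouse430_2 array after RNA amplification, so each mouse gave 1 corneal and 1 limbal array. The labels name no strain, age, sex, treatment or transgene. The comparison asks whether the transcripts of this junction differ between limbal and corneal basal cells of the same animal.

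Desmosomes are spot-like junctions that fasten neighbouring epithelial cells to each other and, inside each cell, to the keratin filaments. Their cadherins, the desmogleins and desmocollins, bind across the gap between cells, and plakoglobin and the plakophilins hold the cadherin tails to desmoplakin, which grips the keratins. In stratified epithelia the set of cadherins changes with height: in epidermis, desmoglein 1 and desmocollin 1 are typical of the upper layers, and desmoglein 3 and desmocollin 3 of the lower ones.

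None of the measured desmosome genes was called as different between limbal and corneal captures. With limma on paired arrays, 0 of the 18 desmosome probe sets that passed the filter on low values reached an adjusted p of 0.05, against 0.0851% of all 27022 probe sets tested (0.0814% higher and 0.0037% lower in limbal arrays), and 0 of 18 had an unadjusted p under 0.05, against 6.46% of all. Each gene is described by its brightest tested probe set, and differences are limbal minus corneal on a scale of log2(signal + 89.4), which understates the change of dim probe sets. On this scale 5 of the 9 genes had a difference above 0 (50.9% of all 13570 tested genes did), and the differences ran from -0.74 to 0.73. Their median was 0.24, beside 0.01 over all tested genes. Without mouse 5, whose corneal array stood apart as described next, 4 of the 9 were above 0, the median turned to -0.16 (-0.01 over all tested genes) and the range was -0.63 to 0.74, with 0 calls. The standard errors of the 18 probe sets lay between 0.39 and 0.83, so the 95% intervals still include differences of 1 or more for several genes.

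The arrays were uneven, and 1 of them stood apart. They had been scanned on 3 days (mice 1 and 2, mice 3 to 5, and mice 6 to 8), and the 99th percentile of the signal was 4915 to 9557 on day 1, 2417 to 4726 on day 2 and 14575 to 17948 on day 3. The array that stood apart was the corneal one of mouse 5. Its median correlation with the other arrays was 0.045, against 0.185 to 0.518 for the rest, and its log2 ratio of 3' to 5' control signal was 0.17, against 2.03 to 4.74. Its signal for the corneal keratin Krt12 was 948.4, and no other corneal array had less than 58785. For the basal keratin Krt5 it was 195.4, with at least 14207 on each of the other 7. The summed signal of 4 corneal epithelial markers was 3148 on that array and between 178398 and 662637 on the other 7. Of all 16 arrays, that array was lowest for 3 of those 4 markers and for 3 of the 5 tested basal markers. Pax6 was at 966.9, with at least 1235 on the other 7. Krt14 (453.5) and Trp63 (673.8) were not lowest there, as other corneal arrays went down to 315.7 and 595.9. Most of these markers were thus lower there than on any other array. Still, Krt12, Pax6 and Tkt were above the median signal of their array on all 16 arrays, this one included, and Aldh3a1 on 15. Which cells that array holds was not tested. The fitted difference of each gene is therefore given with and without mouse 5. The part of RNA quality in these values was not tested. Markers of neighbouring tissue were present as well: the summed signal of 10 stromal markers was 5851 to 283974 in limbal and 2395 to 31860 in corneal arrays, and all 10 had a difference above 0, Col1a2 and Vim past the threshold. Of the tested members of the other lists, 5 of 5 conjunctival (Krt4 past the threshold), 7 of 8 immune (H2-Aa past it), 6 of 6 cornified, 1 of 5 basal, 1 of 4 corneal epithelial, 1 of 3 endothelial, 4 of 6 muscle, 2 of 2 pigment cell and 1 of 1 lens markers had a difference above 0. Their part in the desmosome values was not tested. In bulk captures of this kind, fewer cells of a type and less RNA per cell cannot be told apart.

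**Figure D1:**
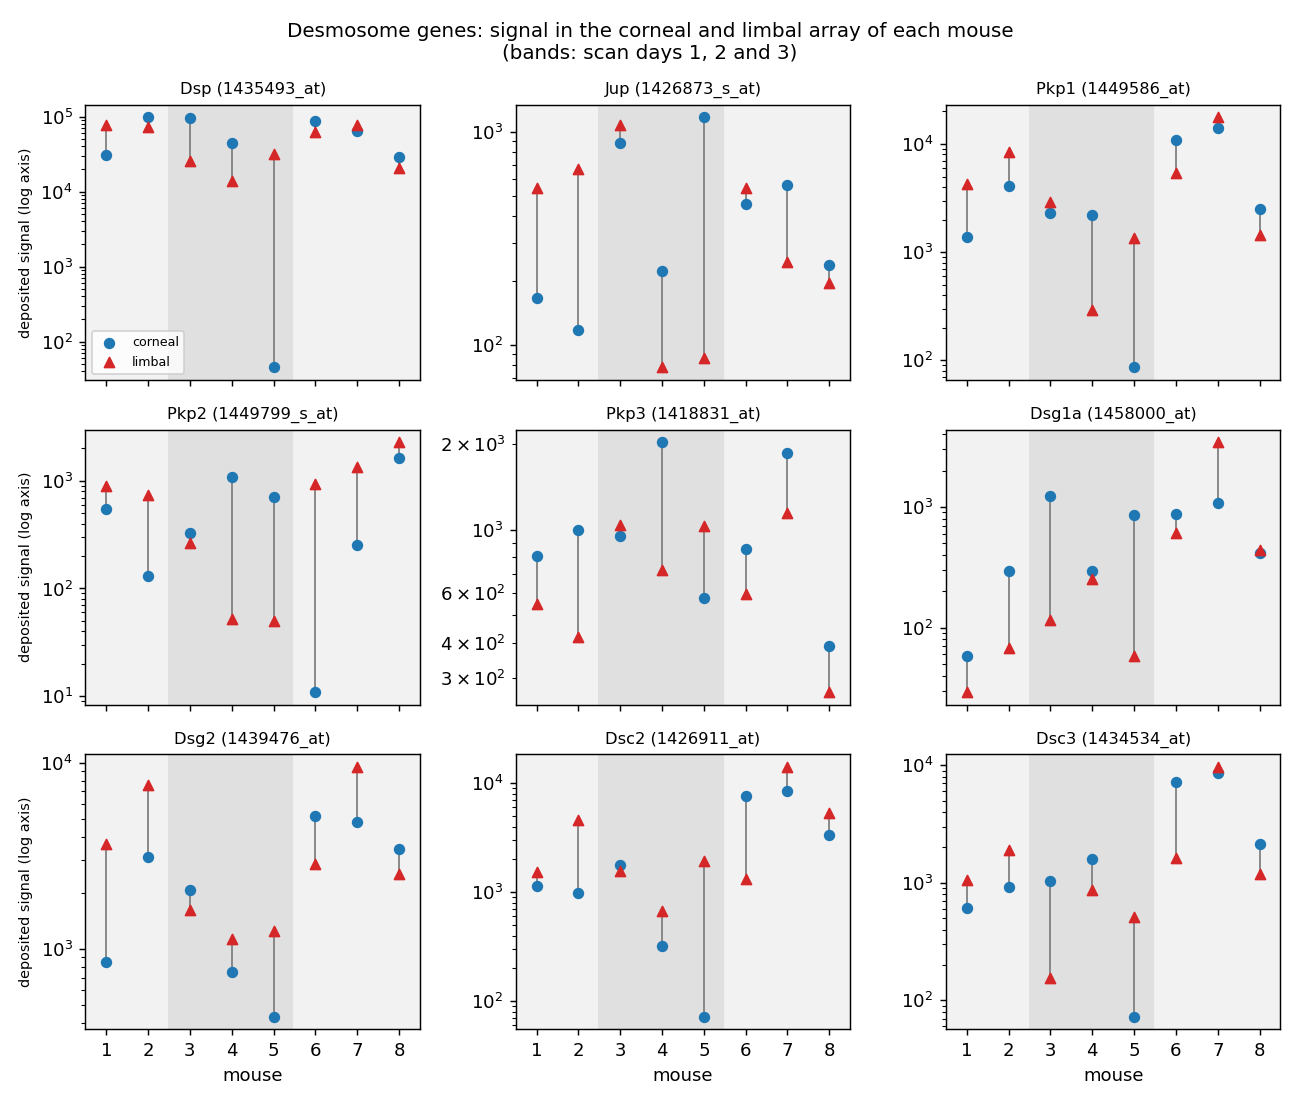
Deposited signal (log axis) of the brightest tested probe set of 9 desmosome genes in the corneal (circles) and limbal (triangles) array of each of 8 mice, 1 panel per gene, with grey bands for the 3 scan days and a line joining the arrays of a mouse. Dsp is at 13936 or above on 15 arrays and at 45.2 on the corneal array of mouse 5, and Pkp1, Dsg1a, Dsg2, Dsc2 and Dsc3 have their highest point on the limbal array of mouse 7.

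Desmoplakin, encoded by Dsp, is the plaque protein that connects every desmosome to keratin. On the probe set 1435493_at the limbal signal ranged from 13936 to 78145 with a median of 46711, and the corneal signal from 45.2 to 97363 with a median of 54085. Apart from the corneal array of mouse 5, all 15 arrays carried a signal of 13936 or more, and the sites overlapped. Limbal arrays had a mean log2 value of 15.28 ± 0.97 (SD, n = 8). The corneal mean was 14.71 ± 3.17 (SD, n = 8). The difference was 0.57 ± 0.83 (SE), with a 95% interval from -1.11 to 2.26 (limma adjusted p = 0.96). Mouse 5 alone contributed a difference of 7.90, and without it the estimate turned to -0.47 ± 0.48 (adjusted p = 0.89). In 5 of the 8 mice the limbal array was the lower one. A further bright Dsp probe set, 1435494_s_at, had the same sign in 7 of 8 mice and moved alike, from 0.26 with mouse 5 to -0.73 without it. The dim remaining probe set (1427610_at, 60.8 to 1419) differed by 0.15 ± 0.42.

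Plakoglobin, encoded by Jup, binds the cadherin tails in desmosomes and also in adherens junctions. Its only probe set, 1426873_s_at, was dim, between 78.2 and 1071 in limbal arrays (median 393.7) and between 117.6 and 1164 in corneal arrays (median 347.6), and was above the median signal of its array on 11 of 16 arrays. The limbal array was the higher one in 4 mice and the lower one in 4. The highest of the 16 values, 1164, was that of the corneal array of mouse 5, on which the corneal epithelial markers were low. Jup differed by -0.15 ± 0.47 (adjusted p = 0.99), and by 0.23 ± 0.45 without mouse 5.

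The start regions of these plaque genes are shown because, of the desmosome genes, only these 2 had a window in the RefSeq set used. Desmoplakin was the desmosome gene whose estimate moved most when 1 mouse was left out, and plakoglobin is the partner common to all desmosomes. Both windows come from the RefSeq table for GRCm38.p6, run 5′ to 3′ on the gene's strand from 250 bases before to 50 after the start, and carry in capitals each match to the GC box GGGCGG on either strand (CCGCCC on the other). Dsp lies on the + strand at chr13:38151044-38151343 and Jup on the - strand at chr11:100397741-100398040.
Dsp: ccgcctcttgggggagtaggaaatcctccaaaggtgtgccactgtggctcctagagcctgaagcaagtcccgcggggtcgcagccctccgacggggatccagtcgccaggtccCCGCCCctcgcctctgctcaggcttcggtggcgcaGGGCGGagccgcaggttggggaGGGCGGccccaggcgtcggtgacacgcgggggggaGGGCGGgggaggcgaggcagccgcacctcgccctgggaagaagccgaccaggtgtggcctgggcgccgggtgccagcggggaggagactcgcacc
Jup: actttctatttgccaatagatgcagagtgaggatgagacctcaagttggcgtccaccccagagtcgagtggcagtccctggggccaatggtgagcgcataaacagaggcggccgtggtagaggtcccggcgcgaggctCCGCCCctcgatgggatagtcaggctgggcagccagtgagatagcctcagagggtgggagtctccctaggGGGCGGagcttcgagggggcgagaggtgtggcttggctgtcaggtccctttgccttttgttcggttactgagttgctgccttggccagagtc
The Dsp window held 4 GC boxes and the Jup window 2, and 35.7% of the 32851 windows of this length in the table held at least 1. The E-box CAGGTG, which the other strand spells as CACCTG, was found 1 time in the Dsp window and not in that of Jup, and 20.2% of all windows held it. A match is a run of letters and says nothing about binding in these cells.

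Plakophilins are armadillo proteins that cluster the cadherins and tie them to desmoplakin. Pkp1, most abundant in the upper layers of stratified epithelia, was read from 1449586_at. Limbal signals ran from 292.4 to 17587 (median 3592) and corneal signals from 85.8 to 14092 (median 2411). The lowest was the corneal array of mouse 5 and the highest the limbal array of mouse 7, and the sites overlapped almost fully. The difference was 0.24 ± 0.47 (adjusted p = 0.97), with the limbal array higher in 5 mice. Without mouse 5 it was -0.16 ± 0.43, so its direction also rests on that animal.

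Pkp2, the plakophilin of heart, simple epithelia and basal layers, had 4 probe sets, which differed in sign in many mice. The brightest, 1449799_s_at, was at 50.4 to 2291 in limbal arrays (median 821.6) and at 10.9 to 1623 in corneal arrays (median 438.2). Its difference was 0.33 ± 0.53 (adjusted p = 0.97) and ranged from -3.05 in mouse 4 to 3.35 in mouse 6, with scan-day means of 1.28, -1.94 and 1.97. Without mouse 5 it was 0.74 ± 0.54 (adjusted p = 0.83). The other tested probe sets, 1429183_at and 1460511_at, shared its sign in 4 mice each and differed by 0.15 ± 0.42 and -0.09 ± 0.45, the latter turning to 0.12 ± 0.46 without mouse 5. The remaining one, 1420259_at, was below the filter. The probe sets of Pkp2 thus gave different per-mouse orders.

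Pkp3, a plakophilin of most epithelia, was above the median signal of its array on all 16 arrays with probe set 1418831_at. Limbal signals were 268.0 to 1143 (median 656.4) and corneal signals 389.5 to 2031 (median 900.8). The limbal array was the lower one in 6 of 8 mice, the exceptions being mice 3 and 5. Its difference, -0.46 ± 0.39 with an interval from -1.25 to 0.34 (adjusted p = 0.91), was below 0 on each scan day, at -0.79, -0.17 and -0.52. Pkp3 kept a difference below 0 in all 26 fits and settings run, from -0.79 to -0.17, and passed in none. Without mouse 5 it was -0.63 ± 0.39. The second probe set, 1418832_at, was below the filter and shared the sign in 4 mice.

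**Figure D2:**
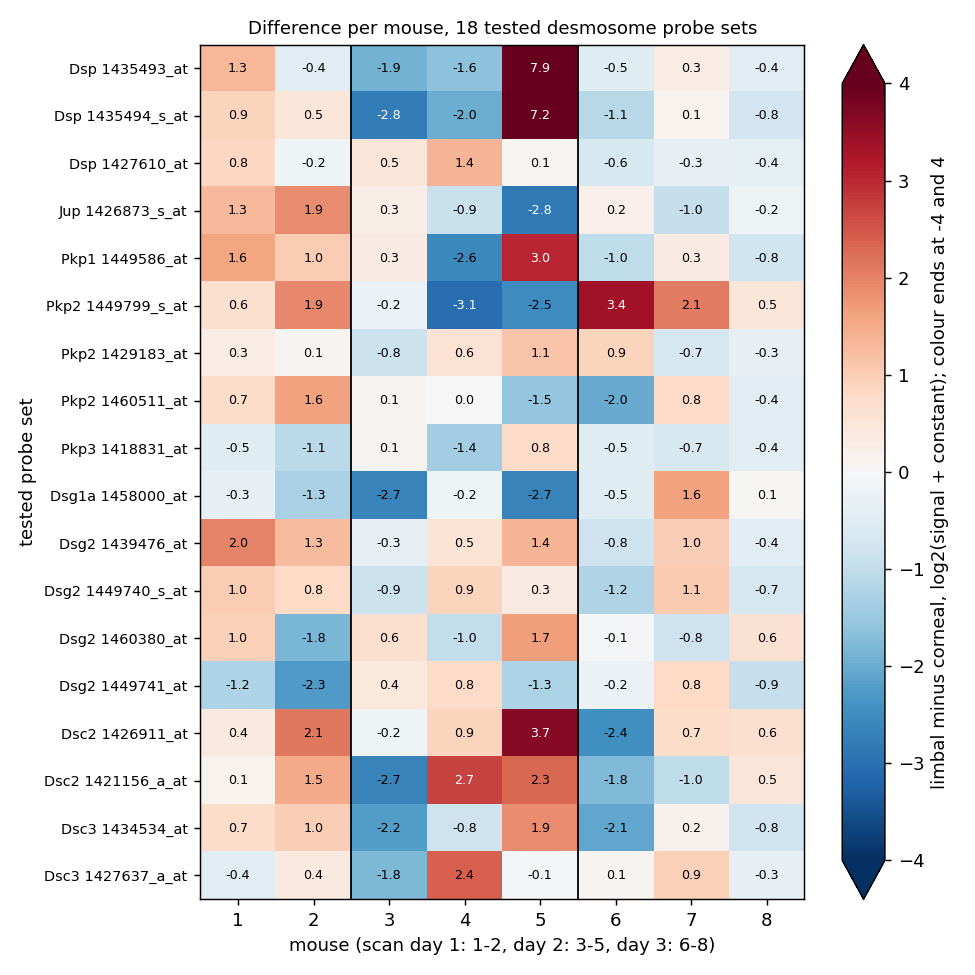
Limbal minus corneal difference (log2, colour and number) of the 18 tested desmosome probe sets in each of 8 mice, with vertical lines between scan days. In mouse 1 most cells are above 0 and in mouse 6 most are below, and the largest value is 7.9 for Dsp in mouse 5.

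Among the cadherins, Dsg2 and Dsc2, which are found in nearly all cells with desmosomes, had the largest differences above 0, and neither passed. Dsg2, desmoglein 2, on 1439476_at was at 1128 to 9496 in limbal arrays (median 2699) and at 431.1 to 5153 in corneal arrays (median 2596). The limbal array was higher in 5 of 8 mice, all but mice 3, 6 and 8, and the difference was 0.57 ± 0.41 with an interval from -0.27 to 1.41 (adjusted p = 0.88). It stayed at 0.45 ± 0.40 without mouse 5, but the mean of the mice differed by scan day, from 1.62 (first day) and 0.52 (second) to -0.09 (day 3). Another probe set of Dsg2, 1449740_s_at, had the same sign as 1439476_at in 8 of 8 mice, with a smaller difference of 0.17 ± 0.40. The 2 other tested probe sets were dimmer, shared the sign in 3 and 4 mice, and differed by 0.02 ± 0.44 (1460380_at, -0.21 ± 0.44 without mouse 5) and -0.50 ± 0.45 (1449741_at). A further 2 were below the filter.

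Dsc2, desmocollin 2, was read from 1426911_at. In limbal arrays it was at 677.7 to 14162 (median 1757) and in corneal arrays at 72.1 to 8459 (median 1455). Its difference was the highest of the 9 genes, 0.73 ± 0.47 with an interval from -0.21 to 1.68 (adjusted p = 0.85), higher in the limbal array of 6 mice. Without mouse 5, whose difference was 3.65, it was 0.31 ± 0.43. Probe set 1421156_a_at had the same sign in 7 mice and differed by 0.21 ± 0.50, which turned to -0.09 ± 0.52 without mouse 5.

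Dsc3, desmocollin 3, the desmocollin of the lower layers, did not share that direction. With 1434534_at the limbal arrays were at 153.7 to 9685 (median 1128) and the corneal arrays at 72.6 to 8586 (median 1322). The limbal array was higher in 4 mice and lower in 4. The difference was -0.27 ± 0.44 (adjusted p = 0.97), and -0.58 ± 0.42 without mouse 5. The dimmer probe set 1427637_a_at differed by 0.15 ± 0.45 and shared the sign in 4 mice.

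Dsg1a encodes 1 of the copies of desmoglein 1 that the mouse carries, and its single probe set, 1458000_at, may also bind transcripts of the close copies. Limbal signals were 29.3 to 3441 (median 184.2) and corneal signals 58.2 to 1222 (median 635.3), above the array median on 8 of 16 arrays. Its difference was the lowest of the 9 genes, -0.74 ± 0.47 with an interval from -1.69 to 0.20 (adjusted p = 0.85). It was below 0 in 6 mice, most in mouse 3 (-2.68) and mouse 5 (-2.67), and above 0 in mice 7 (1.61) and 8 (0.06). Without mouse 5 it was -0.47 ± 0.47 (adjusted p = 0.89). The day means were -0.81, -1.84 and 0.40, and on day 3 mouse 6 was at -0.48, so the mean above 0 came mostly from mouse 7.

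**Figure D3:**
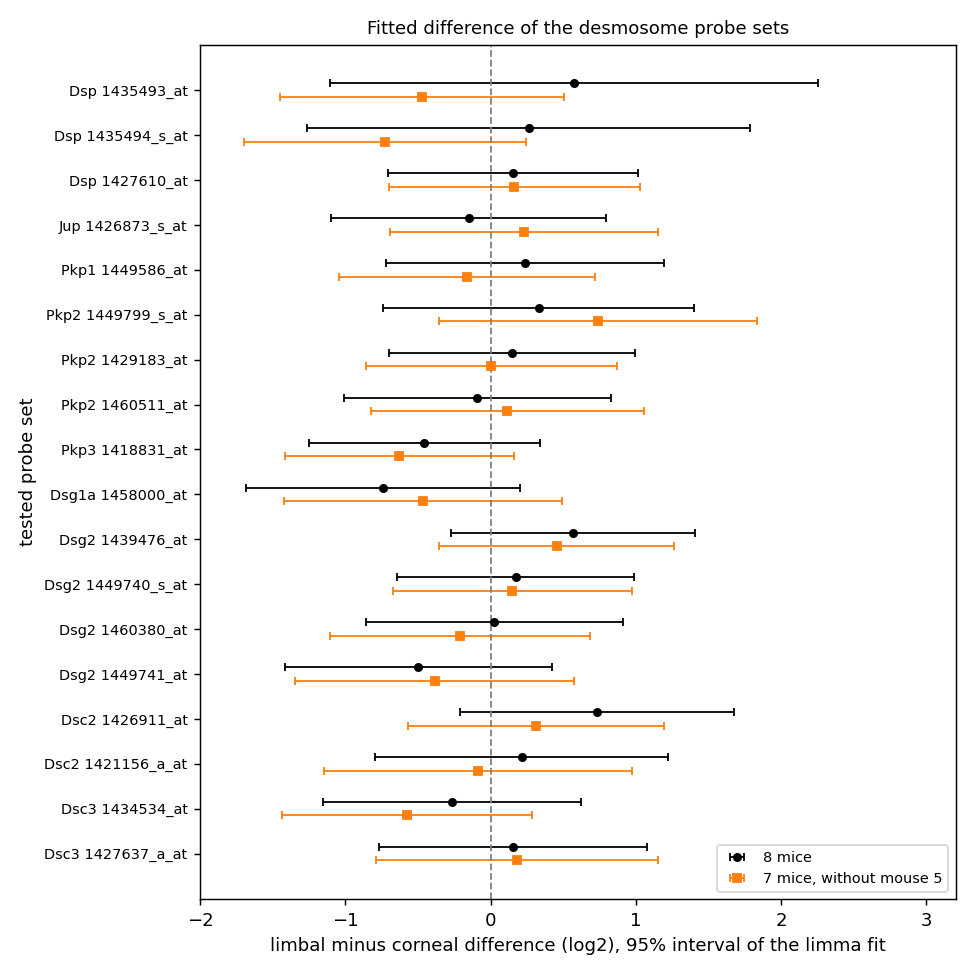
Fitted limbal minus corneal difference (log2) with its 95% interval from limma for the 18 tested desmosome probe sets, over 8 mice (black circles) and over 7 mice without mouse 5 (orange squares). Every interval spans 0, and the Dsp point 1435493_at moves from 0.57 to -0.47 when mouse 5 is left out.

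On their brightest probe sets, Dsp, Pkp1, Dsg2, Dsc2 and Dsc3 all had their lowest of 16 values on the corneal array of mouse 5, at 45.2, 85.8, 431.1, 72.1 and 72.6. Of all 13570 tested genes, read in the same way, 12.1% had their lowest value there. The other tested probe sets of Dsp and 1449740_s_at of Dsg2 were lowest on that array too. Not so 1460380_at and 1449741_at of Dsg2, 1421156_a_at of Dsc2 and 1427637_a_at of Dsc3, which were lower on 5, 8, 3 and 7 arrays. The other 4 measured genes, Jup, Pkp2, Pkp3 and Dsg1a, were not lowest on that array. This grouping was made on that array after its values were seen, so a difference above 0 in mouse 5 follows from the choice. Over the other 7 mice, a pair of the former 5 genes had the same sign in 4 to 6 (median 5), beside 1 to 5 (median 4) for pairs that cross the sets. The ranges overlap, and the values are a description without a test. The sets also differed in brightness, with median signals of 1128 to 52628 for the former 5 genes and 351 to 830 for the other 4. The 12.1% is over genes of every brightness. The part of brightness in the grouping and in the shared signs was not tested.

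Read by animal and leaving mouse 5 aside, these 5 genes were all higher in the limbal array of mice 1 and 7 and all lower in that of mouse 6. Their median difference was 1.32 in mouse 1, 1.02 in mouse 2, -0.33 in mouse 3, -0.81 in mouse 4, -1.01 in mouse 6, 0.32 in mouse 7 and -0.44 in mouse 8. In mouse 5, where the choice of genes sets it, it was 3.04. Basal epithelial markers (Krt5, Krt14, Trp63, Itga6 and Col17a1, with Itgb4 below the filter) had mean differences of 0.21, -0.26, -1.20, -0.71, 1.94, -1.90, -0.71 and -0.93 in mice 1 to 8. Of the 7 mice other than mouse 5, both had the same sign in all except mice 2 and 7, where desmosome genes were higher and basal markers lower in the limbal array. The stromal list, at 2.03, 3.81, 1.09, 0.74, 0.33, 4.34, 2.39 and -0.40, had the sign of the desmosome genes in 4 of those 7. A fit with the basal markers as a covariate, chosen after seeing the data, gave 0 calls among the 18 desmosome probe sets (0.0222% of all were called), and 4 of 18 at an unadjusted p under 0.05 (10.1% of all). In it Dsp differed by 1.65 ± 0.47 (limma adjusted p = 0.22), Dsc2 by 1.33 ± 0.38 (0.23) and Dsg2 by 0.86 ± 0.37 (0.41). The other of the 4 was 1435494_s_at, also of Dsp, at 1.34 ± 0.44 (0.31). The covariate itself went with site, as the mean of the basal markers was higher in the limbal array of only 2 of 8 mice. The part of this in the adjusted differences was not tested. This fit kept the corneal array of mouse 5, where Dsp was at 45.2 and Krt5 at 195.4, and was not run without that mouse.

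**Figure D4:**
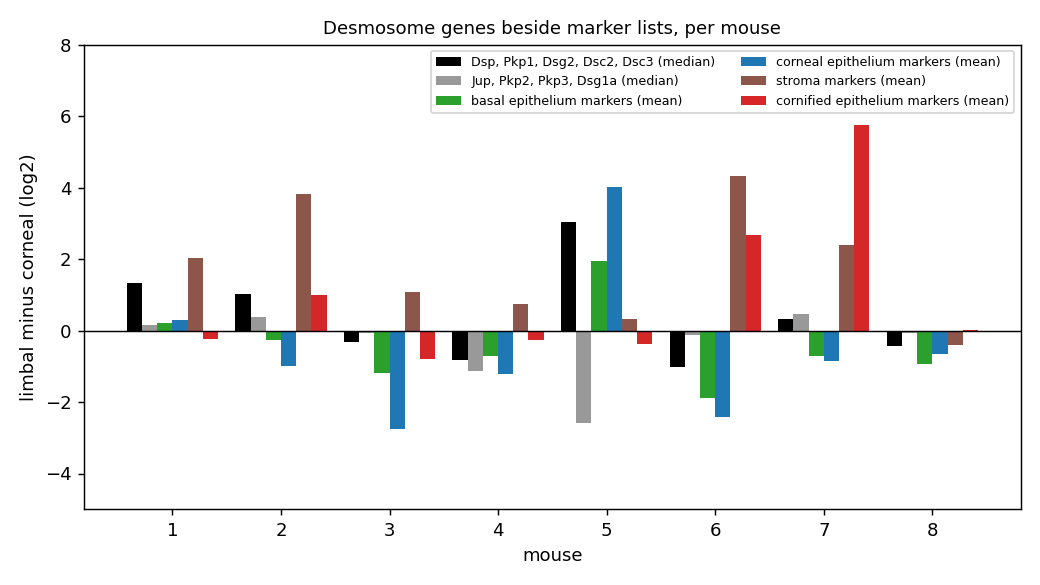
Limbal minus corneal difference (log2) per mouse: medians of 2 sets of desmosome genes (black and grey bars) beside the mean differences of 4 marker lists (coloured bars). In mouse 5, on whose corneal array the genes of the black bars were chosen, the black bar reaches 3.04, in mouse 6 the black and basal marker bars are below 0, and in mouse 7 the cornified bar reaches 5.76.

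The limbal array of mouse 7 held the highest of the 16 values for 5 of the 9 genes, Pkp1 (17587), Dsg1a (3441), Dsg2 (9496), Dsc2 (14162) and Dsc3 (9685), while 6.30% of all tested genes, bright and dim, peaked on that array. It also had the highest 99th percentile of signal of the 16 arrays, 17948. The part of this wider scale in the peaks of bright genes was not tested. For Dsg1a the next highest array was at 1222. The 6 markers of cornified epithelium (Krt1, Krt10, Lor, Flg, Ivl and Krtdap) also all peaked on the limbal array of mouse 7. Their summed signal there was 253339, against 3082 on the corneal array of that mouse and at most 125580 on any other array. In mouse 6 the cornified markers were higher in the limbal array as well, with a mean difference of 2.67. Dsp, Pkp1, Dsg2, Dsc2 and Dsc3 were all lower in the limbal array of that mouse. Dsc1, desmocollin 1 of upper epidermal layers, was at 17277 on the limbal and 239.9 on the corneal array of mouse 7 (1456203_at). It was between 277.2 and 4270 on the other limbal arrays. On its other probe set, 1421460_at, which was below the filter, no limbal array was above 999.5. The part of cornified or upper-layer cells in the desmosome values of the limbal array of mouse 7 was not tested.

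Fitted by scan day, limma gave 0 calls among the 18 desmosome probe sets on each day, against 0.385% of all probe sets on day 1 and 0% on days 2 and 3. On day 1, with 2 mice, 3 of 18 had an unadjusted p under 0.05 (6.18% of all), and all 3 were higher in limbal arrays. They were the brightest probe sets of Dsg2 (1.62 ± 0.56, adjusted p = 0.38), Pkp1 (1.29 ± 0.55, adjusted p = 0.74) and Dsc2 (1.26 ± 0.61, adjusted p = 0.79). The other tested probe sets of Dsg2 did not all share that direction on day 1. Their means were 0.92 (1449740_s_at), -0.44 (1460380_at) and -1.76 (1449741_at). That of Dsc2, 1421156_a_at, was at 0.83. On day 2, 0 of 18 had an unadjusted p under 0.05 (3.59% of all). On day 3, with 3 mice, it was 1 of 18 (8.66% of all), 1449799_s_at of Pkp2 (1.97 ± 0.52, adjusted p = 0.38). The other tested probe sets of Pkp2 differed on day 3 by -0.04 ± 0.48 (1429183_at) and -0.56 ± 0.56 (1460511_at). Dsp differed on day 3 by -0.22 ± 0.29, Pkp1 by -0.49 ± 0.34, Dsg2 by -0.09 ± 0.38, Dsc2 by -0.35 ± 0.55 and Dsc3 by -0.90 ± 0.42 (limma adjusted p from 0.59 to 0.97). The Dsc3 signal was 1193 to 9685 on day 3, 604.2 to 1906 on day 1 and 72.6 to 1601 on day 2, so the ranges overlap. In mouse 6 the corneal signals of Dsc2 and Dsc3 were 7630 and 7125 and the limbal ones 1328 and 1621, while in mouse 7 they were 8459 and 8586 against 14162 and 9685. Mice scanned on the same day thus went in opposite directions.

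Among genes that work with the desmosome, 0 of 28 tested probe sets of 16 genes were called, and 1 of 28 had an unadjusted p under 0.05, against 6.46% of all probe sets. Their median difference was -0.02, with 7 genes above and 9 below 0. That probe set, 1437797_at, belongs to Atp2a2, the calcium pump of the endoplasmic reticulum, and differed by 0.97 ± 0.46 (adjusted p = 0.77). Prkca, a protein kinase C that acts on desmosomal adhesion, differed by 0.88 ± 0.47 on 1450945_at and by -0.71 ± 0.45 on 1437393_at. Dsc1 differed by 0.90 ± 0.50, and by 5.72 in mouse 7, where every other animal lay from -0.60 to 1.86. Dsg1b, another desmoglein 1 copy, differed by 0.63 ± 0.47, Atp2c1, the calcium pump of the Golgi, by -0.72 ± 0.47 on 1442742_at, and the p120 catenin gene Ctnnd1 by -0.59 ± 0.45 on 1437448_s_at. These probe sets were picked by smallest p. The other tested probe sets of Atp2a2 differed by 0.45, -0.20 and 0.39. Those of Atp2c1 differed by -0.62, 0.20 and -0.24, and that of Ctnnd1 by 0.43. A second probe set of Dsc1, 1421460_at, was below the filter, with limbal signals of 9.5 to 999.5. The remaining genes, also not called, were Pkp4, Perp, Evpl, Ppl, Cdsn, Kazn, Tchp, Cdh1, Ctnna1 and Ctnnb1. Dsg1c and Dsg4 had no probe set of a single symbol and were not analysed here.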

How the data were processed

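The authors deposited 1 intensity per probe set and array, a linear signal. With the outer 2% at both ends left out, the mean of every array's intensity was 500.0, so the deposited arrays share that scale. Per the labels' protocols, RNA of captured cells was amplified with an Arcturus kit and labelled with biotin. The algorithm behind the signal is not given in the sources used here. The array information files the authors deposited hold other information, of which the scan day and chip type were used.

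Control probe sets (64) were left out, and the 27022 with a mean log2(signal + 89.4) above the 40th percentile were tested (the constant is the 25th percentile of all values). This passed 18 of 22 desmosome probe sets. Limma 3.58.1 in R 4.3.3 compared sites within mice (a coefficient per mouse), with a variance trend and Benjamini-Hochberg adjustment over all tested probe sets, at 0.05. The pairing comes from the design, 2 captures per animal. Deviations of both arrays of a mouse correlated with a median r of 0.30, above 0.1 in 7 of 8 mice and 0.03 in mouse 2. The fit was tested on simulated data. Of 50 planted log2 differences of each size, 0 were called at 1, 27 at 2, 46 at 3 and 49 at 4. Genes were named through the platform annotation, updated by RefSeq, and read from their brightest tested probe set. The desmosome genes were all described, the companion genes all named with values for those of smallest p, and both these and the marker lists were chosen with earlier results of these data known. The number of arrays limits the precision. Alternatives covered the mouse term (statmod 1.5.0), filter, constant, normalization, weights, trend, a 3' to 5' ratio, scan days and leaving out each mouse, and the fits without scan day 2 and with basal markers as a covariate were added after seeing the data.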

Additional observations from a re-analysis of the deposited data

Results flagged for a closer look

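2 values of Dsp stood far from the others of their group, and both come from the same array. On the corneal array of mouse 5 the log2 value of Dsp was 7.07, while the nearest corneal array was at 14.80 and the highest at 16.57. The difference between the limbal and the corneal array of mouse 5 was 7.90, the nearest being 1.32 in mouse 1. Of 27 groups of 8 values checked over the 9 genes, 2 stood out in this way, and about 5% of groups would do so by chance.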

How the results depend on the processing

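The count of desmosome probe sets called was 0 in all 25 fits run, and so was that of the companion genes. Fits differed in how many of all probe sets they called: 23 with the reported settings, 0 without the mouse as a block (no replicate block, no pairing), 0 after quantile normalization, 8 with the filter at the 60th percentile, 11 with an added constant of 16, 117 with array weights, 6 with basal markers as a covariate, and 104, 0 and 0 on scan days 1, 2 and 3 alone. Leaving out 1 mouse gave 0 (mouse 2) to 52 (mouse 8), with 4 without mouse 1, 6 or 7 and 10 without mouse 3. The median difference of the desmosome genes was 0.24, with 1.26, -0.17 and -0.32 on scan days 1, 2 and 3, -0.11 with array weights and -0.16 to 0.57 with 1 mouse left out (below 0 without mouse 5 or 6). Fitted differences changed sign as follows. On scan day 1, Jup was 1.59 and Dsc3 0.85. On scan day 2, Pkp2 was -1.94. On scan day 3, Dsp was -0.22, Pkp1 -0.49, Dsg1a 0.40, Dsg2 -0.090 and Dsc2 -0.35. Pkp1 was -0.22 with array weights, and Jup 0.45 without scan day 2. With 1 mouse left out, Dsp ranged from -0.47 to 0.93, Pkp1 from -0.16 to 0.64, Jup from -0.44 to 0.23, Pkp2 from -0.10 to 0.82 and Dsc3 from -0.58 to 0.012, and the sign turned without mouse 5 (Dsp, Pkp1 and Jup), 6 (Pkp2) or 3 (Dsc3). With basal markers as a covariate, Pkp2 was -0.15, Dsc3 0.24, Dsp 1.65 ± 0.47 and Dsc2 1.33 ± 0.38 (limma adjusted p = 0.22 and 0.23). The covariate of that fit was itself lower in the limbal array of most mice, and the fit was not run without mouse 5. In it 4 of 18 desmosome probe sets had an unadjusted p under 0.05, against 10.1% of all. Both bright probe sets of Dsp were among them. The cause of these changes was not tested.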

Other observations

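The desmocollins Dsc2 and Dsc3 were set side by side after their values had been seen, 1 of 36 possible pairs of the desmosome genes, and without a test. The limbal minus corneal difference of Dsc2 exceeded that of Dsc3 in 6 of 8 mice, by 0.998 ± 0.946 on the log2 scale (SD, n = 8). The gap was between 0.57 and 2.06 in those mice, and -0.33 and -0.37 in mice 1 and 6. All of these values are of the brightest probe sets. The other tested probe sets, 1421156_a_at of Dsc2 and 1427637_a_at of Dsc3, lay close together, with fitted differences of 0.21 and 0.15.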
